A study of Mus musculus with 3 samples.

Results

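The genes described here are 35 members of the fibroblast growth factor (FGF) system: 22 genes of the Fgf family, 4 receptor tyrosine kinases, the receptor Fgfrl1, docking adaptors, Klotho co-receptors, secreted binding proteins and FLRT proteins. They were chosen by symbol, through every probe set whose platform annotation gives that symbol alone. In all, 68 of 34945 such probe sets belonged to them, and 34 of the 35 genes had a value among 18193 genes. The adaptor Frs2 had no such probe set and was not analysed here. RNA came from 3 pools of about 20 kidneys each, taken at E15.5 (Theiler stage 23) from CD-1 mice that carried the transgene Tg(Meis1-EGFP)FO156Gsat. This transgene makes green fluorescent protein under the control of Meis1, and fluorescent cells were sorted after trypsin dissociation. All 3 arrays form 1 group, replicates 1, 2 and 3. The series title calls the cells peripheral blastema and the source field calls them nephrogenic interstitium. No unsorted kidney and no other cell type was measured, so each gene was set against the background of its own array.

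FGF ligands are secreted proteins that bind heparan sulfate and receptor tyrosine kinases on nearby cells, and the activated receptor signals through Frs adaptors to the Ras and MAP kinase cascade. In the mouse kidney the pathway is known for keeping nephron progenitors alive, for growth and branching of the ureteric bud, and for a role in the stroma. A subset of ligands acts as hormones with Klotho proteins, and another subset stays inside the cell.

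The level of background, set by genes of sensory neurons that encode odorant and related receptors, was a signal of 135 in replicate 1, 185 in replicate 2 and 168 in replicate 3, where the medians of all probe sets were 143, 162 and 187. Pearson's r between arrays ran from 0.968 to 0.969 across genes, which are not independent replicates. Of the interstitial markers, listed with earlier results of these data known, 12 of 12 were above background. Among them were Foxd1 at 7.47 ± 0.21 log2 units and Meis1 at 6.84 ± 0.21 (SE, n = 3, limma adjusted p = 7.78e-07 for both). Meis1 also controls the transgene by which the cells were sorted, so it is no separate check on them. Cap mesenchyme markers were above background in 7 of 10 cases, with Six2 at 1.86 and Eya1 at 3.47 log2 units, while Cited1 (-4.20) and Osr1 (-3.13) were not above it. Distances in this list ran up to 7.37 log2 units. Ureteric bud markers were above in 4 of 9 cases, with Wnt11 at 2.06 and Epcam at 4.13 above background, against Ret at -0.34 and Wnt9b at -0.13. Early nephron markers were above in 4 of 7 cases (Jag1 at 3.08 and Dll1 at 1.01, against Wnt4 at -0.07 and Pax8 at -0.36). Podocyte markers were above in 2 of 4 (Podxl at 1.88 and Synpo at 2.14, against Nphs1 at -1.66 and Ptpro at -0.56). Endothelial markers were above in 6 of 9 (Cdh5 at 1.31 and Kdr at 1.07, against Pecam1 at -1.64 and Flt1 at -0.67). Of the erythroid markers 1 of 7 was above (Epor at 0.93, against Hba-a1 at -2.38 and Hbb-bh1 at -1.36), and of the macrophage and leukocyte markers 1 of 8 (Csf1r at 1.15, against Ptprc at -1.05 and Cd68 at -0.57). Neural and adrenal markers were above in 4 of 9 cases, as given with the intracellular factors. These counts stand beside 57.3% of all 18193 genes above background, and the shares of the cap mesenchyme, ureteric bud, early nephron, podocyte, endothelial and neural lists, 44.4% to 70%, lie around it. In these sorted pools, fewer cells of a type and less RNA per cell cannot be told apart.

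Of the 34 FGF genes with a value, 13 (38.2%) were above background and 21 were not, against the same 57.3% of all genes. The median distance from background was -0.32 log2 units over the FGF genes and 1.52 over all genes. Receptors, the adaptor and cofactors were above background in 8 of 12 cases (66.7%, near the share of all genes) with a median of 1.73 log2 units. Genes of the Fgf family were above in 5 of 22 cases (22.7%) with a median of -1.15, and the 18 secreted ligands among them in 3 cases (16.7%) with a median of -1.22. The difference between roles was not tested. No member lay between the called gene with the smallest distance, Fgf1 at 0.79, and the uncalled gene with the largest, Fgf9 at 0.05. Levels of different genes are not ranked here, because probe sets differ in affinity, and a gene not above background is not shown to be silent.

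**Figure D1:**
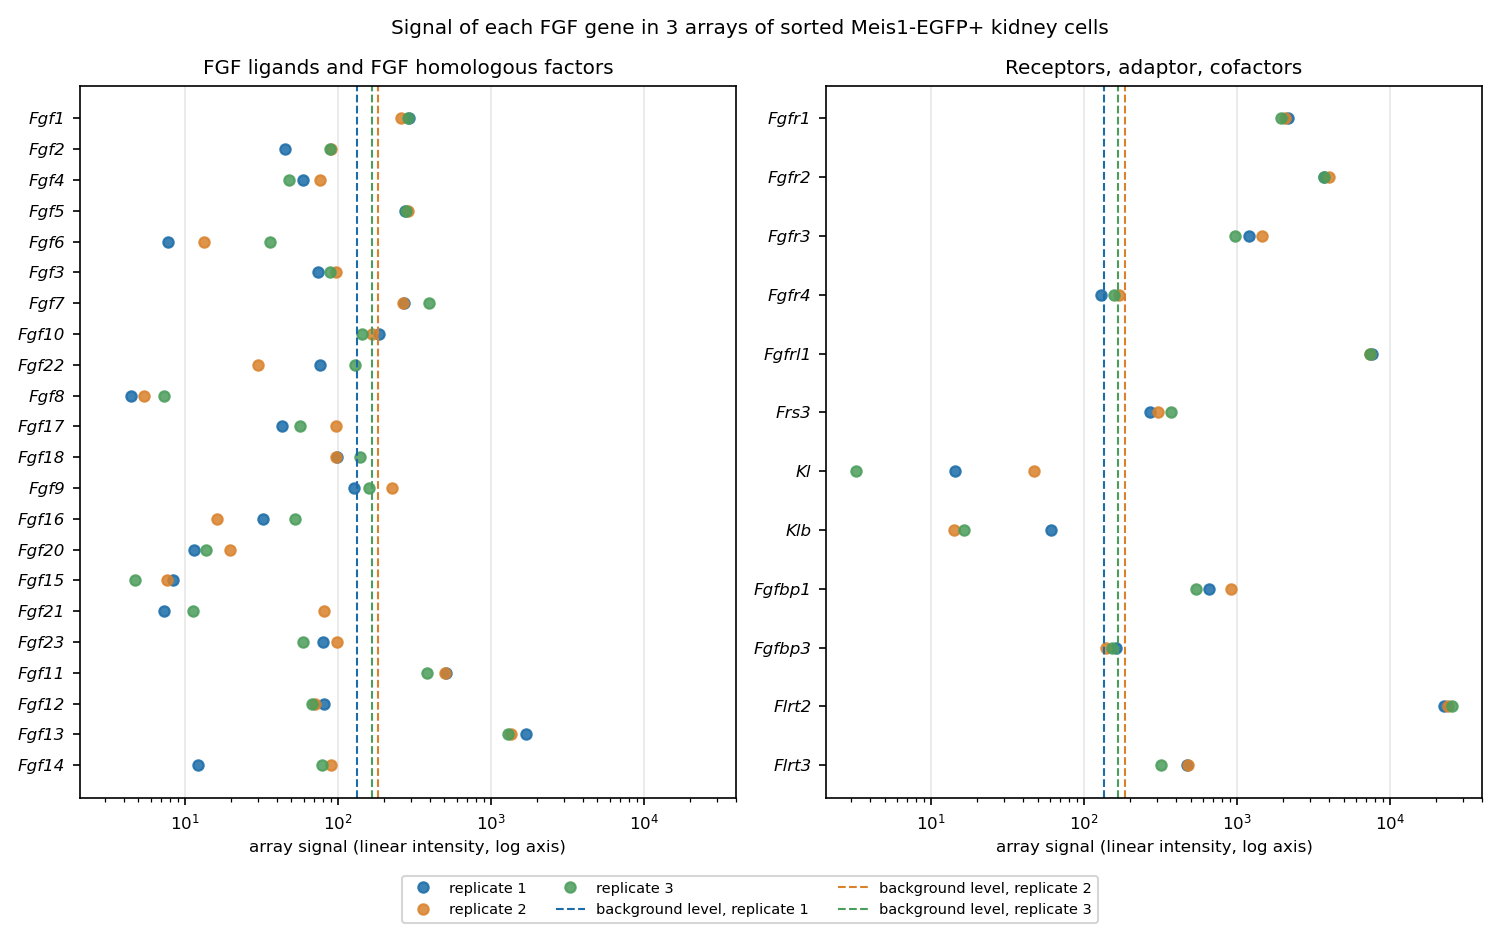
Array signal (log axis) of each FGF gene in replicates 1, 2 and 3, with ligands on the left and receptors, adaptor and cofactors on the right. Dashed lines mark the background level of each array. Fgfr1, Fgfr2, Fgfr3, Fgfrl1 and Flrt2 lie far to the right of the lines on all 3 arrays, while 15 of 18 secreted ligands lie left of them or straddle them. Of all genes, 57.3% were above background.

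A sequence feature that did not enter the choice of members is the density of the dinucleotide CG before the start of the gene, which is high at the CpG islands of many broadly used promoters. RefSeq upstream sequences (GRCm38.p6, 250 bases before the start) were matched for 28 of the 35 members, 27 of them with a value. Where a gene had several starts, the one with the most CG was taken. The 11 matched members above background held 2 to 33 CG with a median of 12, and the 16 not above background held 4 to 37 with a median of 10. Over all genes the medians were 18 in 8505 genes above background and 6 in 5947 genes not above it, and 92.3% of 27025 genes held at least 1 CG. CG reads the same on both strands. The ranges of the 2 sets of members overlapped almost fully. The sequences below are those with the most and the fewest CG in each set, written 5′ to 3′ with every CG in capitals, to show that overlap. Fgf13 and Fgfr2 were above background, and Fgf18 and Fgf3 were not. Fgf13 has 4 listed starts whose CG counts ran from 2 to 33, and which of them the measured RNA used is not known. The windows are chrX:59567349-59567598 (minus strand) for Fgf13, chr7:130266809-130267058 (minus strand) for Fgfr2, chr11:33147401-33147650 (minus strand) for Fgf18 and chr7:144838362-144838611 (plus strand) for Fgf3.
Fgf13: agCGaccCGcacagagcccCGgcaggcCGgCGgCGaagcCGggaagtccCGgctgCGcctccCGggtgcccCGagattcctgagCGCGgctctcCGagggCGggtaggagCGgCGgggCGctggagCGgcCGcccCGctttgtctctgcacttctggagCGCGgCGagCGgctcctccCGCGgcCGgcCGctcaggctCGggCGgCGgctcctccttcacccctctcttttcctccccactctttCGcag
Fgfr2: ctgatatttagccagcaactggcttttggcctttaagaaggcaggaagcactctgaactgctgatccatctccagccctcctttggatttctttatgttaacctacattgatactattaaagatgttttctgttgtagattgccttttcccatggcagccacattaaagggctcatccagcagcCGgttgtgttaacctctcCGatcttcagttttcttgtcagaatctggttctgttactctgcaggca
Fgf18: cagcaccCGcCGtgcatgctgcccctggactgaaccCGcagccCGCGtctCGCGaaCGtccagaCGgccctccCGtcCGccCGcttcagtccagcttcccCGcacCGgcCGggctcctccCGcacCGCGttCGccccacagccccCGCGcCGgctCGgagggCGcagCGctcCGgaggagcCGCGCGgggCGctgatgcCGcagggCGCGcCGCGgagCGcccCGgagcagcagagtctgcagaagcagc
Fgf3: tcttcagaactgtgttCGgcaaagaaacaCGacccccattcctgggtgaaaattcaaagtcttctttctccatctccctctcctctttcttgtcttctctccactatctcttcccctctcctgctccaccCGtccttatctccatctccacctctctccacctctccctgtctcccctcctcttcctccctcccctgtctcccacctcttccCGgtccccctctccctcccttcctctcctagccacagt

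Most receptors were above background in the sorted cells. Fgfr1 and Fgfr2, which the metanephric mesenchyme of the mouse needs together, were above background on all 3 arrays, and so were Fgfr3, a restraint on bone growth, and Fgfrl1, a receptor without a kinase domain that mouse kidneys need to form. Fgfr4, best known for bile acid control in liver, was not above background. Fgfr1 had signals of 2165, 2077 and 1954 in replicates 1, 2 and 3 which put it 3.68 ± 0.22 log2 units over the background level (12.8-fold; SE, n = 3; limma adjusted p = 5.95e-06). Its 3 signals were close together, with a mean of 2065 ± 106 (SD, n = 3). Fgfr2 had signals of 3747, 4007 and 3695 a distance of 4.56 ± 0.21 log2 units (23.6-fold; limma adjusted p = 1.97e-06). For Fgfr3 the signals were 1211, 1459.5 and 977, a distance of 2.89 ± 0.23 log2 units (limma adjusted p = 2.14e-05). Replicate 2 was highest and replicate 3 lowest for Fgfr3, yet each was more than 2 log2 units above its level.

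Fgfrl1 had signals of 7651, 7468 and 7488 and stood 5.55 ± 0.22 log2 units over background (46.7-fold; limma adjusted p = 1.14e-06). The arrays hardly differed for this gene after each was centred on the median log2 signal of its 18193 genes, not of all probe sets. The SD of the centred log2 signal was 0.0068, and only 0.173% of the 10432 genes above background had a lower one. Fgfr4 had signals of 129.5, 169.7 and 157 against levels of 135, 185 and 168, so it lay just under the level on every array (-0.09 ± 0.20). Its other 4 probe sets lay between -0.17 and -3.65.

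The calls of Fgfr1, Fgfr2 and Fgfr3 rest on part of each gene's probe sets. Among the probe sets of all genes, 48.7% were above background. Fgfr2 was called from 1 of 3 probe sets. Its name ends in _s_at, the array maker's mark for probes that match several transcripts, and the other 2 probe sets lay at -0.38 and -1.0. Without probe sets ending in _s_at or _x_at, Fgfr2 was at -0.38 and lost its call. Fgfr1 was above background in 2 of 3 probe sets, at 3.68 and 3.47, and the remaining probe set lay at -1.16. Fgfr3 was above in 1 of 2, with the other at -0.74. Both probe sets of Fgfrl1 were above background. The value of 5.55 comes from a probe set ending in _s_at, and without such probe sets Fgfrl1 lay at 3.23 and kept its call, on a probe set ending in _a_at. Without that kind as well it had no value. Ureteric bud markers, from a cell type in which mouse Fgfr2 is also known to act, had summed signals of 5992, 4718 and 5783 in replicates 1, 2 and 3, and 4 of 9 were above background, with Wnt11 and Epcam called and Ret and Wnt9b not called, as given above. Cap mesenchyme markers summed to 46551.5, 53993 and 47615.8, with 7 of 10 above background, and interstitial markers to 227049, 248803 and 250134. Sums of different lists are not compared as levels, because probe sets differ in affinity. The part of these cell types in the receptor signals was not tested.

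Secreted ligands were near or below background. Fgf7, a mesenchymal ligand of the epithelial form of Fgfr2, Fgf5, known as a regulator of the hair cycle, and Fgf1, which binds all FGF receptors, were the 3 of 18 called. Each lay less than 1 log2 unit above background. Fgf7 had signals of 273, 266 and 395 in replicates 1, 2 and 3 (0.92 ± 0.23 log2 units; SE, n = 3; limma adjusted p = 0.00701). Replicate 3 was the high array, and without it the distance was 0.77 and the call was lost (adjusted p = 0.0899). Fgf5 had signals of 275, 288 and 279.8, which differed little between arrays (0.80 ± 0.21; limma adjusted p = 0.00825; 0.84 without replicate 3, adjusted p = 0.0676). Fgf1 had signals of 292, 260.2 and 287 (0.79 ± 0.22; limma adjusted p = 0.0114; 0.80 without replicate 3, adjusted p = 0.0776). The calls of Fgf7, Fgf5 and Fgf1 were kept without replicate 1 (limma adjusted p = 0.0434, 0.0199 and 0.0332) and without replicate 2 (0.00235, 0.0147 and 0.0095). With a stricter level, the 99th percentile, the distances were 0.44 for Fgf7, 0.31 for Fgf5 and 0.31 for Fgf1, and none was called. With the mean over a gene's probe sets they were 0.20, -0.67 and -0.22.

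Fgf10 and Fgf9 sat at the background level. Fgf10, the other mesenchymal ligand of the epithelial form of Fgfr2, had signals of 186, 167 and 144 against levels of 135, 185 and 168 (0.03 ± 0.24; limma adjusted p = 0.727). It exceeded the level in replicate 1 and not in the others. Fgf9, which with Fgf20 maintains nephron progenitors in the mouse, had signals of 128, 227 and 159.8 (0.05 ± 0.21; limma adjusted p = 0.668) and exceeded the level in replicate 2. Its second probe set lay at -0.98. Fgf20 was well below background on every array, with signals of 11.5, 19.8 and 13.9 (-3.46 ± 0.21).

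The other members of the ligand subfamilies were below the level on all 3 arrays. Fgf8, which mouse nephrons need to form, had signals of 4.45, 5.47 and 7.29 (-4.84 ± 0.22), from 1 probe set. Its relatives Fgf18, known in lung and bone, and Fgf17, known in the brain, lay at -0.54 ± 0.23 and -1.37 ± 0.24. Fgf16, a ligand of the heart, lay at -2.41 ± 0.38. Fgf2, the basic FGF, had signals of 45.6, 90.1 and 89.4 (-1.17 ± 0.23), with replicate 1 the low array. Fgf4, a ligand of the early embryo, lay at -1.41 ± 0.23 and Fgf6, a ligand of muscle, at -3.37 ± 0.39. Fgf3, needed for the inner ear, lay at -0.89 ± 0.20 and Fgf22, a ligand at synapses, at -1.27 ± 0.44.

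None of the endocrine ligands or Klotho proteins was above background. Fgf15, the ileal signal that lowers bile acid synthesis, lay at -4.58 ± 0.27 log2 units, Fgf21, a metabolic hormone of liver, at -3.09 ± 0.59 and Fgf23, the phosphate hormone of bone, at -1.04 ± 0.24. Fgf21 had a signal of 81.3 in replicate 2, against 7.33 and 11.4 in replicates 1 and 3, all below the levels. Kl, the co-receptor for Fgf23, had signals of 14.5, 47.5 and 3.24 (-3.63 ± 0.67), and Klb, the co-receptor for Fgf15 and Fgf21, had 61.4, 14.2 and 16.6 (-2.72 ± 0.51). Genes not above background, some of them at the level and not far below it, scattered more between arrays than those above it. The SD of centred log2 signals had a median of 0.42 over the 21 FGF genes not above background and 0.19 over the 13 above it. Over all genes the medians were 0.56 and 0.16. The limma call itself depends on the spread between arrays, so the grouping is not independent of these SDs. By position in the RefSeq gene table, Fgf3, Fgf4 and Fgf15 follow each other with no protein-coding gene between them, as do Fgf6 and Fgf23. All 5 of these neighbours were below background. Of the 18 secreted ligands, to which they belong, 15 were not above it, against 7761 of all 18193 genes.

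**Figure D2:**
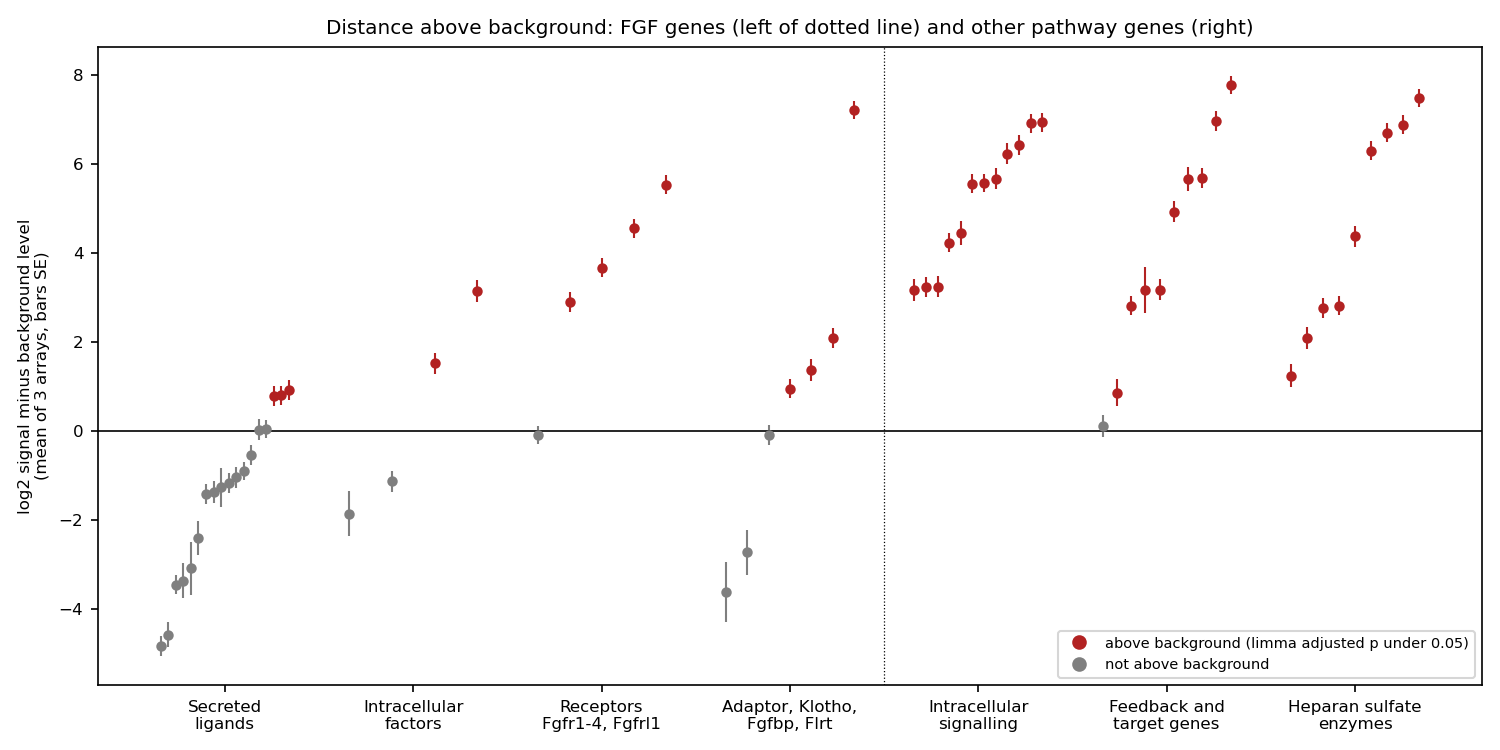
Log2 signal minus the background level (mean of 3 arrays, bars SE) for FGF genes by role, left of the dotted line, and for other pathway genes, right of it. Red points passed limma at an adjusted p of 0.05. Red points make up 3 of 18 secreted ligands, 4 of 5 receptors and 12 of 12 intracellular signalling genes, against 57.3% of all genes. The difference between roles was not tested. Heights of different genes are not comparable as levels.

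Among the FGF homologous factors, which stay inside the cell and are known for binding sodium channels of neurons, Fgf13 and Fgf11 were above background and Fgf12 and Fgf14 were not. Fgf13 had signals of 1699, 1361 and 1295 (3.16 ± 0.25 log2 units; 8.94-fold; SE, n = 3; limma adjusted p = 2.08e-05). All 3 arrays exceeded their levels by far, with replicate 1 highest. Fgf11 had signals of 509.7, 504 and 386 (1.52 ± 0.23; limma adjusted p = 0.000671). For both genes the second probe set was below background, at -1.36 for Fgf13 and -4.0 for Fgf11. With the mean over probe sets Fgf13 kept its call at 1.10 and Fgf11 lay at -1.04. Fgf12 lay at -1.14 ± 0.23, and its 3 probe sets agreed within 0.23 log2 units. Fgf14 had signals of 12.2, 90.4 and 79.0 (-1.86 ± 0.51). The neural and adrenal markers hold genes of neurons, in which these factors are known, and also genes of the adrenal gland. Their summed signals were 2523, 2319.9 and 2803 in replicates 1, 2 and 3. They were above background in 4 of 9 cases, against 57.3% of all genes. The neuronal genes Stmn2 and Elavl4 were called at 0.80 and 1.57 log2 units, while Sox10 at -0.20 and Tubb3 at -3.90 were not. The part of neural or adrenal cells in the Fgf13 signal was not tested.

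Of the cofactors on the cell surface and in the matrix, Flrt2, Flrt3 and Fgfbp1 were above background and Fgfbp3 was not. Flrt2, a leucine-rich repeat protein of the membrane that binds Unc5 receptors and is also linked to FGF receptors, had signals of 22591, 24138 and 25614 (7.22 ± 0.21 log2 units; 149-fold; SE, n = 3; limma adjusted p = 7.78e-07). All 3 of its probe sets were above background, at 7.22, 4.00 and 2.19. Flrt3, its relative, which promotes FGF signalling in frog embryos, had signals of 473, 479.8 and 321 (1.37 ± 0.25; limma adjusted p = 0.0015). Its second probe set exceeded the level on all 3 arrays and did not pass the test (0.48, limma adjusted p = 0.0741). Fgfbp1, a secreted carrier that frees FGFs from heparan sulfate, had signals of 657, 912 and 543 (2.09 ± 0.23; limma adjusted p = 0.000124). Replicate 2 was the high array for Fgfbp1, and no called FGF gene varied more: its centred SD was 0.38, above that of 92.8% of all genes above background. Fgfbp3, a carrier of the same family, had signals of 162, 140.2 and 154 and lay at -0.09 ± 0.23. Frs3, a docking adaptor that links receptors to Ras, had signals of 269.5, 306 and 370.1 (0.95 ± 0.21; limma adjusted p = 0.00386). Each of its arrays exceeded the level, and its call was lost without replicate 3 (0.86, adjusted p = 0.0596) and at the 99th percentile (0.47, adjusted p = 0.113).

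The 13 called genes did not share a high array. After centring, replicate 1 was highest for 2 of them, replicate 2 for 6 and replicate 3 for 5. The highest array was not counted over all genes above background, so this split is a description only. The gap between the highest and lowest array was largest for Fgfbp1 (0.74 log2 units), Fgf7 (0.58), Flrt3 (0.57) and Fgfr3 (0.57). It was 0.12 for both Fgfr1 and Fgfr2. Replicate 2 was highest and replicate 3 lowest for Fgfbp1, Flrt3 and Fgfr3, whereas Fgf7 was highest in replicate 3. The counts of FGF genes over the level of the array were 15, 14 and 13 of 34 in replicates 1, 2 and 3. The levels themselves were 135, 185 and 168. The share of all genes over each level was not counted, so these counts give no result about the FGF genes.

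At the level of probe sets, 17 of the 68 that belong to FGF genes were above background (25%), against 48.7% of all 34945. Of the 11 called FGF genes with several probe sets, 9 also had a probe set that was not called (81.8%), against 66.2% of 6828 such genes in all. The gap between the probe sets of a called gene was largest for Fgfr2 (5.56 log2 units), Fgf11 (5.52) and Flrt2 (5.03). RNA had passed through 2 rounds of amplification, and signals of the 3′ control probe set were 32.0, 41.8 and 38.4 times those of the 5′ one for Gapdh and 8.21, 10.6 and 8.20 times for Actb in replicates 1, 2 and 3. The part of this in the disagreement of probe sets was not tested.

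**Figure D3:**
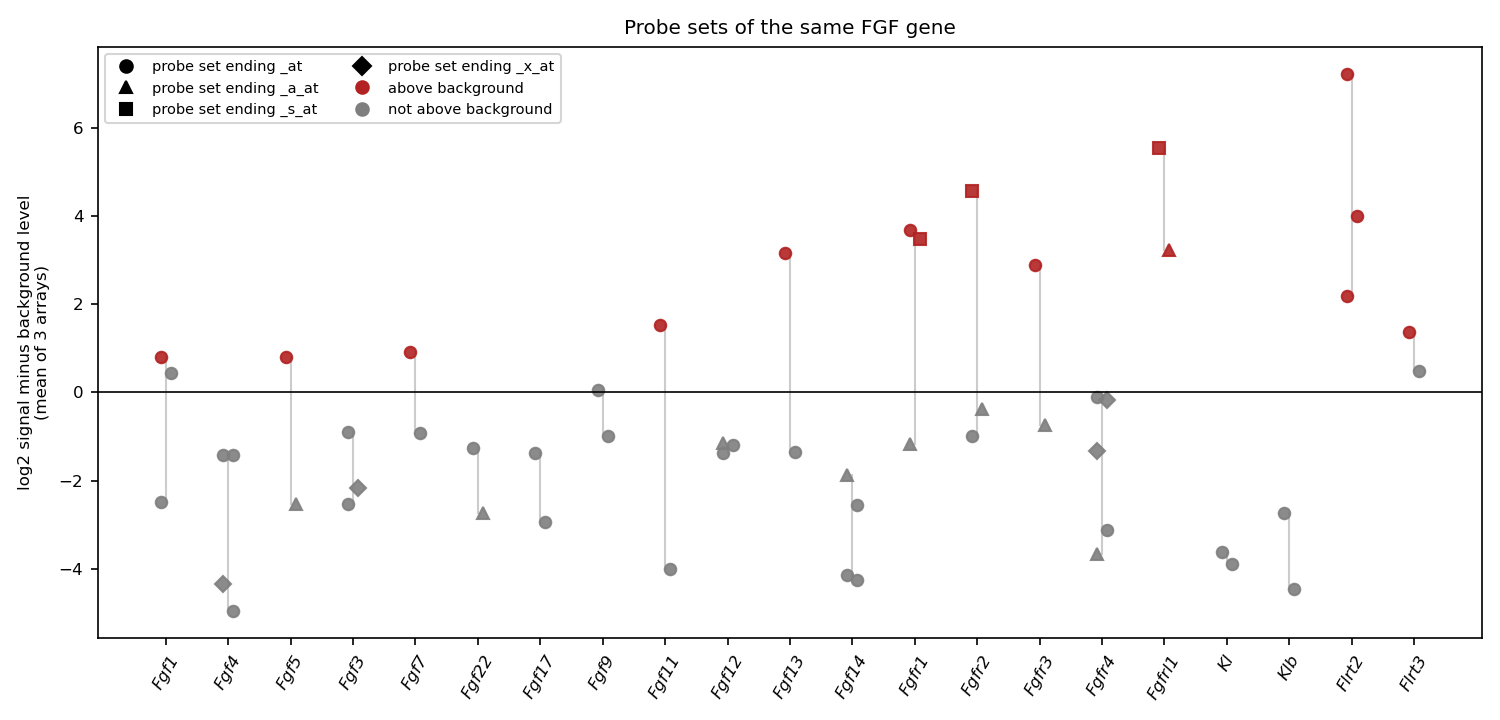
Each probe set of the 21 FGF genes that have several, as log2 signal minus the background level (mean of 3 arrays), with points shifted sideways only to keep them apart. Marker shapes give the ending of the probe set's name and red marks those above background. Both probe sets of Fgfrl1 and all 3 of Flrt2 are red, while for Fgfr2 and Fgf11 1 probe set is red and the rest lie below 0.

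Other genes of the pathway, in lists of intracellular signalling, of feedback and target genes and of enzymes that build or edit heparan sulfate, were above background in 30 of 31 cases (96.8%, against 57.3% of all genes), with a median distance of 4.94 log2 units. All 12 measured genes of intracellular signalling were, among them the adaptor Grb2 at 3.25 ± 0.23, the Ras exchange factor Sos1 at 6.24 ± 0.23, the docking protein Gab1 at 6.92 ± 0.21 and the adaptor Shc1 at 3.25 ± 0.23 (SE, n = 3). These genes serve many receptors besides those for FGF. Of the feedback inhibitors and target genes of the pathway, 9 of 10 were above background. The inhibitors Spry1, Spry2 and Spred1 lay at 5.66 ± 0.27, 2.82 ± 0.21 and 6.97 ± 0.22. Spry4 had signals of 2791, 2182 and 509.8 in replicates 1, 2 and 3 (3.18 ± 0.52), with replicate 3 well under the others and still above its level. Spred3 was not above background (0.11 ± 0.25; limma adjusted p = 0.545). Heparan sulfate genes were above in 9 of 9 cases, with the chain polymerases Ext1 at 1.24 ± 0.26 and Ext2 at 4.38 ± 0.25 and the sulfotransferases Ndst2 at 2.76 ± 0.22 and Hs2st1 at 6.89 ± 0.21.

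**Figure D4:**
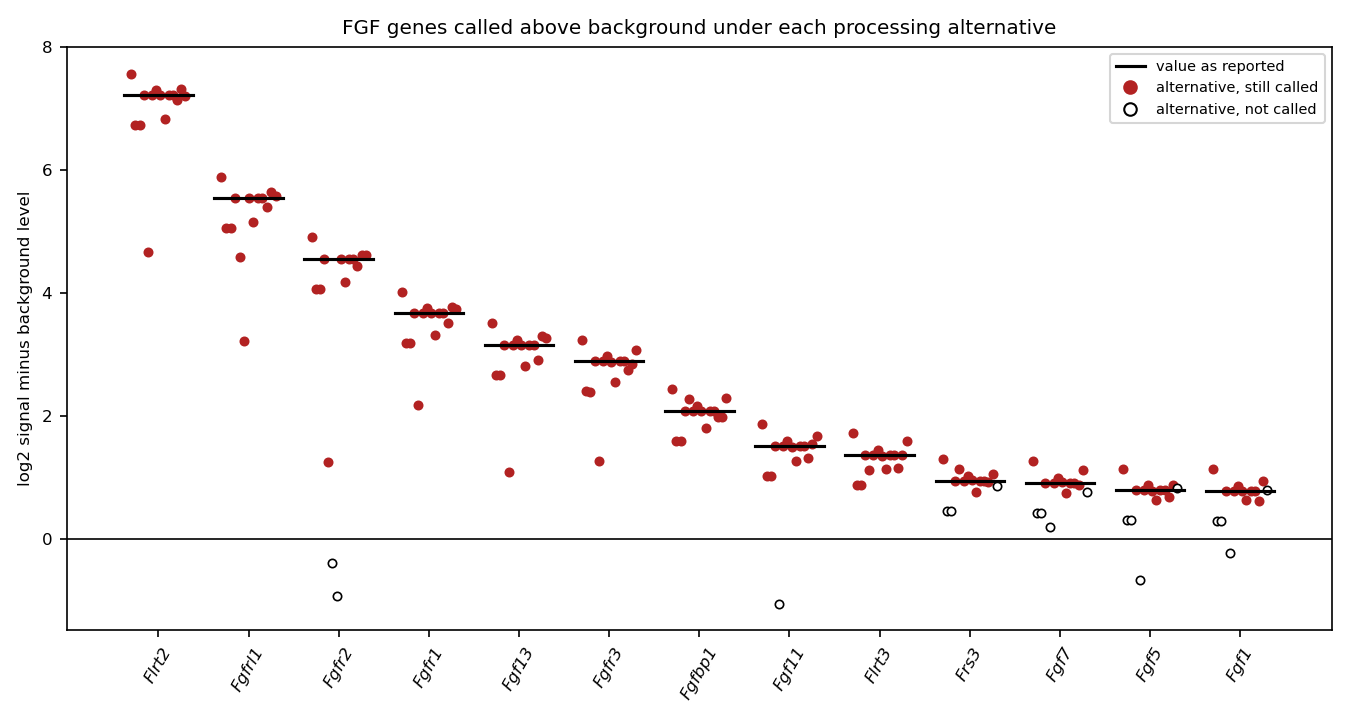
Log2 signal minus the background level of the 13 called FGF genes as reported (black bars) and under each of 14 alternatives (red where still called, open where not). Flrt2, Fgfrl1, Fgfr1, Fgf13, Fgfr3, Fgfbp1 and Flrt3 stay called under all that gave a value, while Fgf1, Fgf5 and Fgf7 lose the call in 4 alternatives, Frs3 in 3, Fgfr2 in 2 and Fgf11 in 1.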

How the data were processed

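The authors deposited 1 signal for each of 45101 probe sets on each of 3 arrays, a 1-colour intensity value that is not on a log scale. Per the submitters' processing notes GCOS was used. Its version, its signal algorithm and its scaling target are not stated in the labels. Without the extreme 2% of probe sets at either end, the mean signal was 1500.01 on all arrays, so the deposited intensity values had been brought to a common mean.

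Log2 was taken without a pseudocount, since no signal was 0 or below. With 64 control probe sets set aside, 34945 probe sets had 1 symbol in the platform annotation. Another 932 with several symbols and 9160 with none were not used. A gene was represented by whichever of its probe sets had the highest mean log2 signal, which gave 18193 genes. Background on each array was set at the 95th percentile over 72 genes of odorant, vomeronasal or trace amine receptors. Distances (log2 signal minus level) were tested above 0, one-sided, with limma 3.58.1 in R 4.3.3 (lmFit with an intercept, then eBayes) and Benjamini-Hochberg adjustment over all genes at a threshold of 0.05. A second fit covered all 34945 probe sets with the same levels. Each SE is moderated by eBayes and includes the spread of the levels between arrays. The script was tested on simulated data.

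FGF members, the lists of other pathway genes and of cell type markers, and the tests were chosen with earlier results of these data known. Named are every FGF member with a value and, from each list of other pathway genes in its own order, the first 4 called and the first 2 uncalled. From a marker list they are the first 2 called and the first 2 uncalled. The 1 group allows no contrast between groups. Nothing in the labels ties the pools to separate litters, so p-values reflect the spread of these samples alone, and that spread may be technical. The number of arrays limits precision. Upstream sequences come from RefSeq on GRCm38.p6. In all, 14 alternatives were run for genes and 13 for probe sets.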

Additional observations from a re-analysis of the deposited data

How the results depend on the processing

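The count of FGF genes above background ranged from 9 to 13 over 14 alternatives, and that of their probe sets from 13 to 19 over 13. Fewer were tested in some alternatives. Without the dimmest 25% of genes, 13 of 21 FGF genes were above background, against 78.3% of all genes left. Without _a_at, _s_at and _x_at probe sets it was 11 of 31, against 54.7%. Probe sets tested ran from 43 to 68. The count of FGF genes was 9 of 34 at the 99th percentile, against 52.9% of all genes. It was also 9 of 34 with a level from genes restricted to other tissues (52.7%) and with the mean over probe sets (50.4%). Without replicate 3 it was again 9 of 34 (54.7%). At the 99th percentile, with the level from other tissues and without replicate 3, Fgf1, Fgf5, Fgf7 and Frs3 lost their calls. The mean over probe sets ended that of Fgf7 and placed Fgf1 (-0.22), Fgf5 (-0.67) and Fgf11 (-1.04) below background. Fgfr2 lay at -0.38 without _s_at and _x_at probe sets and at -0.92 without _a_at ones as well. The 21 FGF genes not above background gained no call in any alternative that gave a value. Not all alternatives could add calls readily. Asking for a signal above the level on every array can only remove calls. The 99th percentile and the level from genes restricted to other tissues are higher levels. Leaving out replicates 1, 2 and 3 gave 13, 13 and 9 of 34 FGF genes, against 56.1%, 57.1% and 54.7% of all genes. It gave 29 to 30 of 31 other pathway genes. No paired analysis was possible because the series holds 1 group. The number of arrays limits the precision.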
